A study of Macaca mulatta with 8 samples.

Results

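The transcriptome of glia-like neural progenitor cells (NPC) was set against that of undifferentiated embryonic stem cells (ESC) of the rhesus monkey. The comparison takes 2 of the 8 libraries of the series. It covers all 12460 gene symbols (12613 rows) for which FPKM values were deposited for both stages. FPKM counts fragments relative to the length of the transcript and to the mapped fragments of the library, so it is a level per length. The deposited symbols are themselves a selection by level, since 12458 of them reach 3 FPKM in at least 1 of the 4 stages. NPC were derived from rosette neural stem cells (R-NSC) by more than 100 days of culture in N2 medium with 20 ng/ml FGF2, 20 ng/ml EGF, BDNF and ascorbic acid on polyornithine and laminin. ESC were grown on inactivated mouse embryonic fibroblast feeders. Both stages come from 1 line, IVF3.2, and the labels name no genetic change. Stage, medium, time in culture and the presence of feeders change together and cannot be told apart. R-NSC at passage 1 (R-NSCP1) and at passage 6 (R-NSCP6) lie between the 2 stages and are given only where they place a gene in the series. Paired-end libraries were made from poly-A RNA.

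Each stage was 1 library made from a pool over many repeats, so there was no spread between replicates and no test was made. A gene was taken as at least 2-fold higher or lower in NPC when the log2 ratio of FPKM + 1, NPC over ESC, was at least 1 or at most -1. Only FPKM was used, so the number of reads under a given value is unknown and no detection limit can be set for a 0. A difference between these libraries has therefore no replicate check. In a bulk sample, fewer cells of a type and less RNA per cell cannot be told apart.

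Pluripotent cells are epithelial, divide rapidly with a short G1 phase, and are held in their state by a circuit of transcription factors with Nodal and FGF signals from outside. Neural progenitors that are expanded for long in FGF2 and EGF resemble radial glia. They keep SOX2 and nestin, make intermediate filaments and extracellular matrix of the glial lineage, and can give rise to neurons, astrocytes and oligodendrocytes. The data show how the genes of these programmes were distributed between the 2 libraries.

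Most genes lay near the diagonal: 7081 symbols were within 2-fold, 2608 were at least 2-fold higher in NPC, which is 20.9% of all symbols, and 2771 were at least 2-fold lower, which is 22.2%. These shares are the background for every list of genes below, and like the lists they cover only symbols with a row. A gene that reaches 3 FPKM in ESC alone of the 4 stages, or in NPC alone, has a row only through that stage. Its direction was then fixed by having a row. The median log2 ratio over all symbols was -0.07, with quartiles of -0.89 and 0.80. A ratio of at least 16-fold was found for 177 symbols in favour of NPC and for 185 in favour of ESC. At least 3 FPKM was reached in both stages by 8658 symbols, in NPC alone by 1709 and in ESC alone by 1109. A value of 0 was listed for 203 symbols in NPC and for 176 in ESC. The scale of the 2 libraries differed. The FPKM sum was 508708 in NPC and 999473 in ESC, and the uncharacterized LOC100426412 took 9.3% of the sum in NPC and 20.6% in ESC. With FPKM divided by the library sum, the median over all symbols moved by 0.83 on the log2 scale, and 82.7% of the genes that differed by at least 2-fold were then higher in NPC, against 48.5% with FPKM as deposited. Where a median printed below changes sign under this scaling, its value is given beside it.

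**Figure D1:**
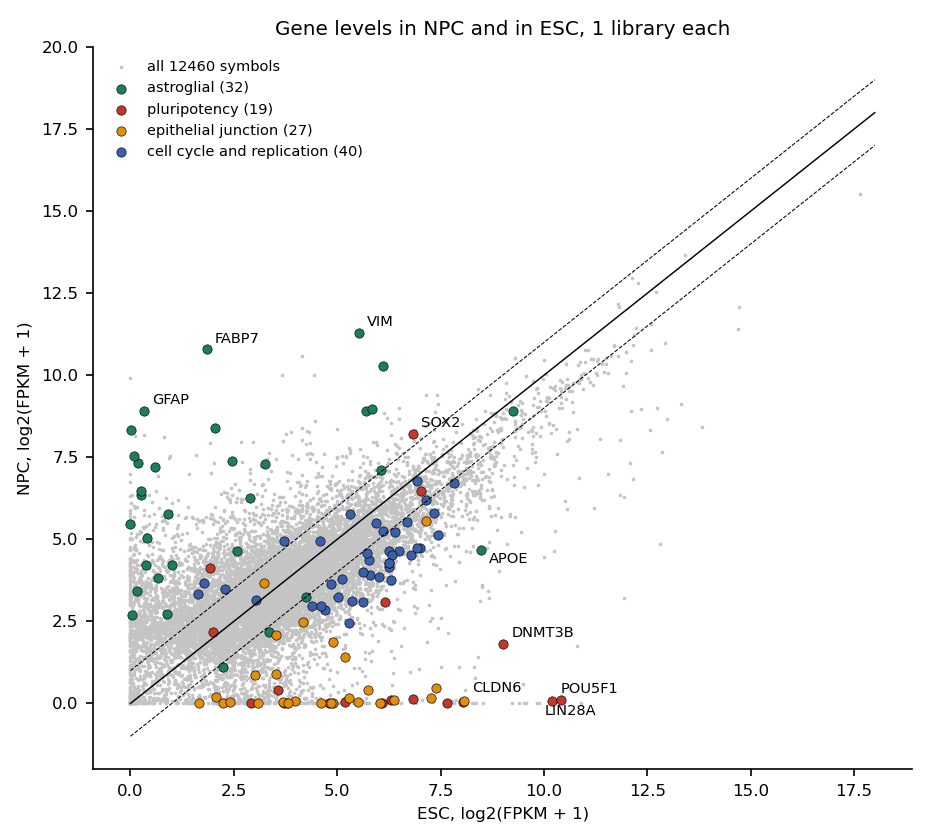
Levels of all 12460 symbols in NPC (vertical axis) and ESC (horizontal axis) as log2(FPKM + 1), 1 library each; the solid line marks equal levels and the dashed lines a 2-fold difference. Astroglial genes such as GFAP and FABP7 lie along the left and upper side, while pluripotency genes such as POU5F1 and epithelial genes such as CLDN6 lie along the bottom.

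The labels of both stages were checked against marker genes first. Of 19 pluripotency genes with a row, 15 were at least 2-fold lower in NPC and 2 higher, with a median log2 ratio of -4.80. POU5F1, a core transcription factor of the pluripotent state, was at 0.0583 FPKM in NPC and 1176 FPKM in ESC. LIN28A (LOC719865), an RNA-binding protein that blocks the maturation of let-7 miRNAs, was at 0.0693 FPKM in NPC and 1357 FPKM in ESC, a log2 ratio of -10.31. Its paralog LIN28B was at 0.0132 FPKM in NPC and 67.1 FPKM in ESC. TRIM71, an RNA-binding ubiquitin ligase that is a let-7 target, was at 0.0244 FPKM in NPC and 35.7 FPKM in ESC. These genes were thus at trace levels in NPC. The exceptions were SOX2, shared by pluripotent and neural stem cells, at 296 FPKM in NPC and 113 FPKM in ESC, and TFAP2C, a transcription factor of trophoblast and germ cells, at 16.4 FPKM in NPC and 2.81 FPKM in ESC. PODXL, the sialomucin that carries the TRA-1-60 epitope of pluripotent cells, stayed within 2-fold, at 87.3 FPKM in NPC and 129 FPKM in ESC, and so did KLF5, at 3.54 FPKM in NPC and 2.99 FPKM in ESC.

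Astroglial genes showed the opposite pattern. Of 32 with a row (39 listed), 27 were at least 2-fold higher in NPC and 3 lower, and the median log2 ratio was 3.95. Of the 27, GFAP, S100B, AQP4, BCAN, SPARCL1, HEPACAM, KCNJ10 and SLC4A4 reached 3 FPKM in NPC alone of the 4 stages. They have a row only through NPC, so their direction was fixed in advance. The levels of the list had a median of 1.798 FPKM at the ESC stage, 7.53 at R-NSCP1, 13.2 at R-NSCP6 and 85.03 at NPC. The most abundant was VIM, the gene of the intermediate filament vimentin, at 2515 FPKM in NPC and 44.9 FPKM in ESC. The radial glial lipid-binding gene FABP7 was at 1767 FPKM in NPC and 2.58 FPKM in ESC. GFAP, the astrocyte intermediate filament, was at 483 FPKM in NPC and 0.246 FPKM in ESC. MLC1 (LOC715409), a membrane protein of astrocyte endfeet, was at 318 FPKM in NPC and 0.00895 FPKM in ESC, and its partner HEPACAM at 5.47 FPKM in NPC and 0.02397 FPKM in ESC. The transcription factors of gliogenesis NFIX, NFIB and NFIA were at 32.2, 17.5 and 5.59 FPKM in NPC, against 0.3198, 0.298 and 0.836 FPKM in ESC. SOX9, which acts with them, was at 53.6 FPKM in NPC and 0.879 FPKM in ESC. Not every astrocyte gene was higher. APOE, the lipid carrier that astrocytes secrete, was at 24.7 FPKM in NPC and 354 FPKM in ESC. The astrocytic aldolase ALDOC was just within 2-fold, at 8.53 FPKM in NPC and 18.1 FPKM in ESC, and NDRG2 was at 3.48 FPKM in NPC and 9.21 FPKM in ESC. The gap junction gene GJA1 was abundant in both, at 476 FPKM in NPC and 609.7 FPKM in ESC. GLUL, glutamine synthetase, was at 137 FPKM in NPC and 65.3 FPKM in ESC.

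Markers of other cell types were read beside these lists. The neuron list had 14 of 24 members at least 2-fold higher in NPC and 2 lower, with a median of 2.01. STMN2 (LOC699264), a microtubule regulator of growing axons, was at 179 FPKM in NPC and 0.896 FPKM in ESC. The growth cone gene GAP43 was at 317 FPKM in NPC and 18.3 FPKM in ESC, and MAP2, of dendrites, at 83.6 FPKM in NPC and 4.01 FPKM in ESC. GAD1, the GABA-synthesizing enzyme, was at 16.4 FPKM in NPC and 0.0719 FPKM in ESC. By contrast, RBFOX3 (LOC711256), which encodes the nuclear antigen NeuN of mature neurons, was at 0.0186 FPKM in NPC and 0.801 FPKM in ESC, and SLC17A6, the vesicular glutamate transporter, at 0.0101 FPKM in NPC and 0.0947 FPKM in ESC. SYP (LOC715739), a synaptic vesicle protein, was at 1.09 FPKM in NPC and 1.07 FPKM in ESC. The neuron list had a median level of 1.02 FPKM at the ESC stage, 9.32 at R-NSCP1, 15.6 at R-NSCP6 and 9.87 at NPC, which was highest in R-NSCP6 and not in NPC. The lower members were CHGB, a secretory granule protein, at 0.526 FPKM in NPC and 10.1 FPKM in ESC, and L1CAM, an axonal adhesion molecule, at 1.77 FPKM in NPC and 9.57 FPKM in ESC. Of 8 oligodendrocyte lineage genes with a row, 5 were at least 2-fold higher in NPC, among them the transcription factors OLIG2 and OLIG1, at 19.7 and 8.87 FPKM in NPC and listed at 0 in ESC, and SOX8 (LOC722402), at 13.9 FPKM in NPC and 1.08 FPKM in ESC. CNP, a myelin enzyme, was at 94.6 FPKM in NPC and 35.1 FPKM in ESC. CLDN11, a tight junction claudin of myelin, was at 0.0376 FPKM in NPC and 14.5 FPKM in ESC. The 12 microglia genes have no row and were not assessed. Of 6 choroid plexus genes with a row none passed 0.536 FPKM in NPC or 1.76 FPKM in ESC, and the defining TTR was listed at 0 in both. The germ cell list has 2 rows, PRDM1, at 3.7998 FPKM in NPC and 1.11 FPKM in ESC, and KIT. Of 16 fibroblast genes, 12 have a row. Of these, 7 were at least 2-fold higher in NPC and 4 lower, with a median log2 ratio of 1.11. Their summed level was 50.2 FPKM in NPC and 69.3 FPKM in ESC. The collagen genes COL1A1 and COL1A2, which define fibroblasts, were at 0.787 and 0.315 FPKM in NPC and 11.7 and 9.21 FPKM in ESC, the stage grown on mouse feeders. Among the higher members, POSTN was at 5.68 FPKM in NPC and 0.0444 FPKM in ESC. S100A4 was at 8.02 FPKM in NPC and listed at 0 in ESC. COL3A1, LUM, DCN, PDGFRB and TWIST1 were also at least 2-fold higher in NPC. No fibroblast gene exceeded 16.8 FPKM in NPC (THY1) or 41.4 FPKM in ESC (also THY1, which neurons express as well). The part of feeder cells in the ESC values was not tested.

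Mesendoderm genes were lower in NPC as well. All 9 members with a row, of 19, were at least 2-fold lower in NPC. Apart from EOMES, these members reached 3 FPKM in ESC alone of the 4 stages, so they have a row only through ESC. Their lower level in NPC was therefore fixed in advance and is no separate result. In NPC none of the list exceeded 0.647 FPKM. Apart from CER1 (LOC713924), a secreted antagonist at 0.327 FPKM in NPC and 270.1 FPKM in ESC, the ESC values ran from 3.27 FPKM for SOX17 to 21.3 FPKM for EOMES. GSC, a homeobox gene of the organizer, was at 0.05199 FPKM in NPC and 13.6 FPKM in ESC, and MIXL1, a homeobox gene of the primitive streak, at 0.647 FPKM in NPC and 12.5 FPKM in ESC. Of the 3 trophoblast and amnion genes with a row, VTCN1 (LOC714123), an amnion marker, was listed at 0 in NPC and was at 61.1 FPKM in ESC, while IGFBP3 and TFAP2A were at least 2-fold higher in NPC. Of 10 endothelial genes, 3 have a row. KDR, a VEGF receptor, was at 1.86 FPKM in NPC and 9.54 FPKM in ESC. TEK, an angiopoietin receptor, was at 0.0518 FPKM in NPC and 6.77 FPKM in ESC. FLT1, a second VEGF receptor, was listed at 0 in NPC and was at 6.38 FPKM in ESC.

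Epithelial genes were lower in NPC almost throughout: 26 of 27 junction and epithelial genes with a row reached a 2-fold lower level in NPC, none was higher, and the median log2 ratio was -3.75. Of the 26, CDH1, ESRP1, ESRP2, CLDN4, CLDN7, MARVELD2, MARVELD3, RAB25, GRHL2, PKP2, SPINT1, ST14, PRSS8, AP1M2 and CRB3 reached 3 FPKM in ESC alone. They have a row only through ESC, so their lower level was fixed in advance and is no separate result. CLDN6, EPCAM, DSP, DSG2, KRT8 and KRT18 reached 3 FPKM in R-NSCP1 as well. CLDN6 (LOC699854), a claudin of early embryonic epithelia, was at 0.0431 FPKM in NPC and 268 FPKM in ESC. EPCAM, an epithelial adhesion molecule, was at 0.119 FPKM in NPC and 154 FPKM in ESC. E-cadherin (CDH1) was listed at 0 in NPC and was at 28.8 FPKM in ESC. The desmosomal genes DSP and DSG2 were at 2.67 and 0.327 FPKM in NPC and 28.7 and 52.4 FPKM in ESC. The keratins KRT8 and KRT18, which form the filaments of simple epithelia, were at 0.398 and 0.0704 FPKM in NPC and 167 and 81.9 FPKM in ESC. Both keratin symbols stand for more than 1 row, and with their lowest rows the log2 ratios were 0.40 and -0.05 in place of -6.90 and -6.28. The regulators of epithelia named here have a row only through ESC: GRHL2, a transcription factor that maintains them, was listed at 0 in NPC and was at 12.9 FPKM in ESC. ESRP1 (LOC700009), a splicing factor of epithelial exons, was at 0.0228 FPKM in NPC and 44.6 FPKM in ESC, and ESRP2 at 0.0521 FPKM in NPC and 14.7 FPKM in ESC. The 1 other member was within 2-fold. N-cadherin (CDH2, LOC711526), the cadherin of neuroepithelium, was at 193 FPKM in NPC and 18.3 FPKM in ESC. Of 12 protocadherins, adhesion molecules of neural cells, 7 were at least 2-fold higher in NPC and 1 was lower. PCDH10 was at 31.5 FPKM in NPC and 0.0337 FPKM in ESC.

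Signals that hold the pluripotent state were next. Nodal acts through activin receptors and SMAD2 and SMAD3, and the LEFTY proteins and CER1 hold it back. The ligand gene NODAL was listed at 0 in NPC and was at 35.7 FPKM in ESC. Its inhibitors LEFTY1 and LEFTY2 were at 0.00666 and 0.0418 FPKM in NPC and 51.6 and 34.1 FPKM in ESC. FST, the activin antagonist follistatin, was at 2.02 FPKM in NPC and 77.7 FPKM in ESC. Receptors and effectors stood on both sides. SMAD2 was level, at 23.3 FPKM in NPC and 23.3 FPKM in ESC, while SMAD3 was at 13.3 FPKM in NPC and 5.12 FPKM in ESC. The activin receptor ACVR2B was at 2.59 FPKM in NPC and 11.7 FPKM in ESC, and the TGF-beta receptor TGFBR1 was within 2-fold, at 28.3 FPKM in NPC and 28.8 FPKM in ESC. The ligands of the TGF-beta branch differed the other way. TGFB1 was at 20.7 FPKM in NPC and 3.03 FPKM in ESC, and TGFB2 at 5.23 FPKM in NPC and 0.508 FPKM in ESC. INHBB, a subunit of activin B, was at 9.17 FPKM in NPC and 0.0572 FPKM in ESC. Over the 21 members with a row, 5 were at least 2-fold higher and 9 lower in NPC, with a median of -0.02, which was 0.93 with library-sum scaling, or 0.17 relative to all symbols.

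Neural progenitor genes were split. Of 19 with a row, 9 were at least 2-fold higher in NPC, 2 were lower and 8 were within 2-fold, with a median of 0.95. PTN (LOC709496), a secreted growth factor of radial glia, was at 1525 FPKM in NPC and 16.7 FPKM in ESC. Nestin (NES), a filament of progenitors, was at 677 FPKM in NPC and 141 FPKM in ESC. HES6, an antagonist of the Notch effector HES1, was at 52.9 FPKM in NPC and 1.23 FPKM in ESC. The 2 lower members were ZIC2, a zinc finger factor of the early neural plate, at 0.472 FPKM in NPC and 79.8 FPKM in ESC, and PROM1, the CD133 surface antigen, at 2.15 FPKM in NPC and 21.2 FPKM in ESC. SOX11 and SOX4, factors of newborn neurons, were within 2-fold, with 34.1 and 101 FPKM in NPC and 18.5 and 63.6 FPKM in ESC. SOX3 (LOC696412) and SOX1 (LOC708561) were low in both, with 0.694 and 0.307 FPKM in NPC, against 2.38 FPKM in ESC for SOX3 and a listed 0 for SOX1. The list as a whole had a median level of 12.9 FPKM at the ESC stage, 54.5 at R-NSCP1, 83.6 at R-NSCP6 and 18.9 at NPC, so it was highest in R-NSCP6.

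Among transcription factors of regional identity, 11 of 17 were at least 2-fold higher than in ESC, with none lower. NR2F1, a nuclear receptor that patterns the cortex, was at 34.8 FPKM in NPC and 0.116 FPKM in ESC. LHX2, a selector of cortical progenitors, was at 21.4 FPKM in NPC and 0.339 FPKM in ESC, and NR2F2 at 16.5 FPKM in NPC and 0.3703 FPKM in ESC. MEIS2, a homeobox cofactor, was at 10.5 FPKM in NPC and 0.477 FPKM in ESC. The 52 HOX genes listed have no row and were not assessed.

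Growth factor receptors stood on both sides. Of 15 with a row, 7 were at least 2-fold higher in NPC and 4 lower. EGFR, the receptor of the EGF that was in the NPC medium, was at 7.99 FPKM in NPC and 0.424 FPKM in ESC. FGFR1, the main FGF2 receptor, was within 2-fold, at 87.8 FPKM in NPC and 58.5 FPKM in ESC. FGFR3, which marks astroglia, was at 23.9 FPKM in NPC and 4.998 FPKM in ESC. FGFR2, counted among the 4 lower, was listed at 0 in NPC and both R-NSC stages and was at 12.6 FPKM in ESC. It is 1 of the 40 symbols listed at 0 in every stage but ESC, described below, so its ratio shares their limit. ERBB2 and ERBB3, which pair as a neuregulin receptor, were at 23.1 and 14.1 FPKM in NPC and 97.7 and 55.5 FPKM in ESC. NTRK2, the receptor of the BDNF that was also in the medium, was at 63.1 FPKM in NPC and 0.05697 FPKM in ESC. NTRK3, the receptor of neurotrophin-3, was at 8.71 FPKM in NPC and 0.134 FPKM in ESC. DDR1, a collagen-binding receptor kinase, was the most abundant of the list, at 307 FPKM in NPC and 18.9 FPKM in ESC. KIT, of germ cells and other stem cells, was at 0.152 FPKM in NPC and 8.41 FPKM in ESC.

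Genes that ERK signalling induces were not all on the same side. Of 18, 6 were at least 2-fold higher in NPC and 4 lower, with a median of 0.72. JUN (LOC716452), a subunit of the AP-1 factor, was at 55.1 FPKM in NPC and 10.9 FPKM in ESC, and the FGF-induced factor ETV5 at 19.1 FPKM in NPC and 6.31 FPKM in ESC. Its relative ETV4 was at 22.6 FPKM in NPC and 48.4 FPKM in ESC. SPRY2 (LOC702103), a feedback inhibitor of receptor kinases, was at 51.5 FPKM in NPC and 21.6 FPKM in ESC, and SPRY4 at 4.396 FPKM in NPC and 10.02 FPKM in ESC. MYC was at 5.003 FPKM in NPC and 32.03 FPKM in ESC.

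BMP signals induce the ID genes, which block basic helix-loop-helix factors. The ID genes differed in direction. ID4, the member most tied to neural progenitors, was at 149.998 FPKM in NPC and 7.85 FPKM in ESC, and ID2 at 52.9 FPKM in NPC and 8.99 FPKM in ESC. ID1 (LOC713160) was at 4.71 FPKM in NPC and 81.1 FPKM in ESC. The ligand BMP7 was at 43.2 FPKM in NPC and 2.02 FPKM in ESC, while BMP4 was at 0.312 FPKM in NPC and 6.08 FPKM in ESC. BMPR1B, a type I receptor of neural tissue, was at 8.697 FPKM in NPC and 0.571 FPKM in ESC, and its relative BMPR1A was within 2-fold, at 20.4 FPKM in NPC and 23.2 FPKM in ESC. Over the list, 7 of 16 were at least 2-fold higher in NPC and 3 lower.

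Notch genes were higher or level: 8 of 12 were at least 2-fold higher in NPC and none was lower, with a median of 1.80. The ligand DLL1 was at 18.9 FPKM in NPC and 0.867 FPKM in ESC and JAG1 at 18.97 FPKM in NPC and 3.62 FPKM in ESC. NOTCH1 (LOC709947) was at 26.6 FPKM in NPC and 5.29 FPKM in ESC, and NOTCH3 at 21.6 FPKM in NPC and 7.02 FPKM in ESC. LFNG (LOC100428736), a glycosyltransferase that modifies Notch receptors, was at 44.9 FPKM in NPC and 2.36 FPKM in ESC. Of the target genes, HEY1 was at 10.5 FPKM in NPC and 0.4097 FPKM in ESC and HES1 at 50.3 FPKM in NPC and 25.7 FPKM in ESC, the last within 2-fold.

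Wnt genes were evenly split, with 11 of 37 at least 2-fold higher in NPC, 11 lower and a median of 0.00. Receptors stood on both sides. FZD1 was at 49.1 FPKM in NPC and 1.86 FPKM in ESC, and FZD3 at 30.6 FPKM in NPC and 8.89 FPKM in ESC. FZD5 (LOC710796) was at 0.545 FPKM in NPC and 16.9 FPKM in ESC, and FZD7 at 23.7 FPKM in NPC and 82.4 FPKM in ESC. The ligand WNT7A, of neural progenitors, was at 11.9 FPKM in NPC and 0.0602 FPKM in ESC. Among secreted modulators, DKK3 was at 187 FPKM in NPC and 1.998 FPKM in ESC, whereas SFRP1 was at 34.6 FPKM in NPC and 242 FPKM in ESC and DKK1 at 0.482 FPKM in NPC and 4.68 FPKM in ESC. In the nucleus, TCF7L2 was at 35.03 FPKM in NPC and 17.02 FPKM in ESC, and TCF7L1, a repressor that acts in pluripotent cells, at 8.68 FPKM in NPC and 61.2 FPKM in ESC. AXIN2, a widely used target of the pathway, was at 11.8 FPKM in NPC and 5.21 FPKM in ESC.

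The extracellular matrix differed in make-up. Of 26 collagen, laminin and related genes, 11 were at least 2-fold higher in NPC and 5 lower. The laminin chains LAMA4 and LAMC1 were at 88.1 and 57.4 FPKM in NPC and 0.528 and 5.87 FPKM in ESC, while LAMB1 was at 11.2 FPKM in NPC and 29.2 FPKM in ESC. COL4A2, a basement membrane collagen, was at 82.2 FPKM in NPC and 16.7 FPKM in ESC. Fibronectin (FN1) was at 8.72 FPKM in NPC and 30.2 FPKM in ESC. TNC, the tenascin of glial matrix, was at 147 FPKM in NPC and 0.506 FPKM in ESC. Proteoglycans of brain matrix followed, and BCAN, brevican, was at 81.4 FPKM in NPC and 0.199 FPKM in ESC, and CSPG5, neuroglycan C, at 39.9 FPKM in NPC and 0.734 FPKM in ESC. VCAN, versican, was at 1.28 FPKM in NPC and 26.1 FPKM in ESC. Cell-surface heparan sulfate carriers differed in direction: SDC3 was at 114 FPKM in NPC and 9.095 FPKM in ESC and SDC4 at 3.87 FPKM in NPC and 46.2 FPKM in ESC. In all, 9 of 16 proteoglycan genes were at least 2-fold higher in NPC and 2 lower. Among integrins, 3 of 8 were higher and 3 lower. ITGB8, which activates latent TGF-beta with ITGAV, was at 80.5 FPKM in NPC and 0.374 FPKM in ESC, and ITGAV at 46.2 FPKM in NPC and 11.9 FPKM in ESC. ITGA6, a laminin receptor, was at 20.1 FPKM in NPC and 69.6 FPKM in ESC, and the common subunit ITGB1 was within 2-fold, at 126 FPKM in NPC and 116 FPKM in ESC.

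**Figure D2:**
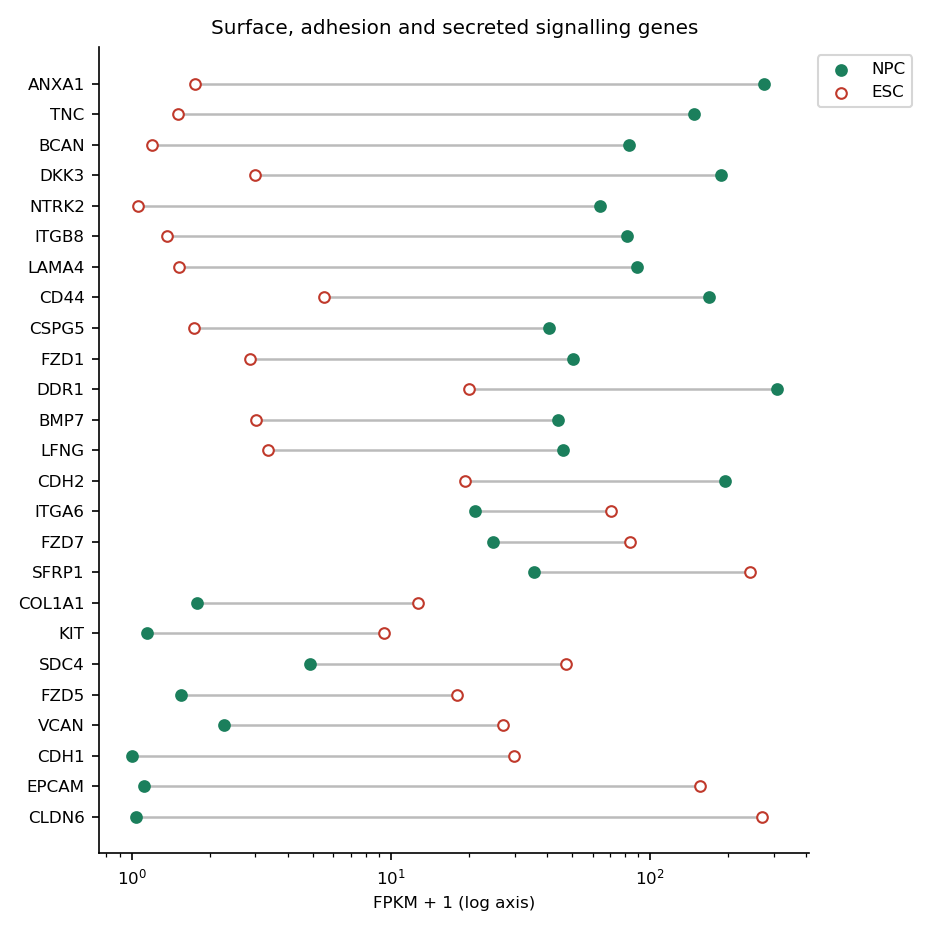
FPKM + 1 of 25 surface, adhesion and secreted signalling genes in NPC (filled points) and in ESC (open points), on a log axis; each line joins the 2 values of a gene, 1 library a stage. From ANXA1 down to CDH2 the filled point is to the right, and from ITGA6 down to CLDN6 it is to the left.

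Guidance and shedding genes were read as families picked by symbol after the data had been seen. Of 27 plexins and semaphorins, 10 were at least 2-fold higher in NPC and 4 lower. PLXNB3 was at 15.3 FPKM in NPC and 0.105 FPKM in ESC, and the secreted ligand SEMA3F at 0.0571 FPKM in NPC and 9.29 FPKM in ESC. Of 17 ephrins and Eph receptors, 6 were higher and 3 lower, with EPHB1 at 35.7 FPKM in NPC and 0.171 FPKM in ESC and EPHA1 at 0.0677 FPKM in NPC and 23.9 FPKM in ESC. Of 19 ADAM and ADAMTS proteases, 6 were higher and 4 lower. ADAM9, a membrane sheddase, was at 136 FPKM in NPC and 9.55 FPKM in ESC, and ADAM17, which sheds EGF receptor ligands, at 45.96 FPKM in NPC and 11.6 FPKM in ESC. Of 29 potassium channel genes, 12 were higher and 6 lower. KCNJ10, an astrocytic inward rectifier, was at 9.68 FPKM in NPC and 0.114 FPKM in ESC. All 4 metallothioneins, metal-binding proteins that astrocytes make, were at least 2-fold higher, with MT1M at 73.3 FPKM in NPC and 5.43 FPKM in ESC.

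Calcium-binding and vesicle genes were more often higher than lower in NPC. In the S100 and annexin list, 9 of 15 were at least 2-fold higher and 2 lower. ANXA1, a membrane-binding protein, was at 274 FPKM in NPC and 0.749 FPKM in ESC. S100B, an astroglial protein that the study used to mark NPC, was at 159 FPKM in NPC and 0.136 FPKM in ESC. ANXA2 and its partner S100A10 were at 765 and 673 FPKM in NPC and 339 and 169 FPKM in ESC. Of 24 lysosomal genes, 12 were higher and 2 lower, with a median of 1.01. PSAP, the precursor of saposins, was at 509 FPKM in NPC and 89.3 FPKM in ESC. LAMP2, of the lysosomal membrane, was at 106 FPKM in NPC and 15.2 FPKM in ESC, and TPP1 (LOC709838), a lysosomal peptidase, at 108 FPKM in NPC and 18.2 FPKM in ESC. The lower members were NPC2, a cholesterol carrier, at 127 FPKM in NPC and 267 FPKM in ESC, and CTSC, a protease, at 30.5 FPKM in NPC and 89.3 FPKM in ESC. Of 17 tetraspanins, membrane organizers, 7 were higher and 1 was lower, with TSPAN3 at 219.8 FPKM in NPC and 37.7 FPKM in ESC and TSPAN12, a Frizzled coreceptor, at 26.96 FPKM in NPC and 227 FPKM in ESC.

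Interferon and antigen presentation genes were higher in part. Of 19, 9 were at least 2-fold higher in NPC and 4 lower. IFIT2 was at 7.13 FPKM in NPC and 0.00982 FPKM in ESC, STAT2 at 21.2 FPKM in NPC and 3.83 FPKM in ESC, and TAPBP, which loads peptides on MHC class I, at 19.6 FPKM in NPC and 0.923 FPKM in ESC. B2M, the light chain of MHC class I, was within 2-fold, at 361 FPKM in NPC and 374 FPKM in ESC. The lowest ratios were those of IFITM1 and IFITM3, which were listed at 0 in NPC and both R-NSC stages and were at 907 and 763 FPKM in ESC. Both count among the 4 lower. They are among the 40 symbols listed at 0 in every stage but ESC, described below, so their ratios share that limit. IFITM3 also has more than 1 row, with ESC values of 763, 18.2 and 7.17 FPKM. ISG15 was at 4.81 FPKM in NPC and 22.4 FPKM in ESC.

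Division genes were mostly lower in NPC. Of 40 genes of the cell cycle and DNA replication, 29 were at least 2-fold lower and 4 higher. The median log2 ratio was -1.58 and stayed negative with library-sum scaling, at -0.60. All of MCM2 to MCM7, the replicative helicase, were lower, such as MCM6 at 25.4 FPKM in NPC and 122 FPKM in ESC. Of the mitotic genes, CCNB1 was at 34.2 FPKM in NPC and 174 FPKM in ESC and AURKA at 7.53 FPKM in NPC and 48.5 FPKM in ESC. MKI67, a proliferation marker, was at 14.9 FPKM in NPC and 48.2 FPKM in ESC, so it was present in both. CCNE1, the cyclin of the G1 to S transition, was at 4.45 FPKM in NPC and 38.02 FPKM in ESC. The genes that stood on the other side belong to G1 control. CCND1 was at 29.6 FPKM in NPC and 12.2 FPKM in ESC, CCND3 at 10.1 FPKM in NPC and 3.89 FPKM in ESC, and their kinase CDK6 at 11.8 FPKM in NPC and 2.42 FPKM in ESC. CCNE2 (LOC700382) was the other, at 9.11 FPKM in NPC and 2.08 FPKM in ESC. CDK4 was within 2-fold, at 108 FPKM in NPC and 121 FPKM in ESC. Inhibitors of the cycle were read next. CDKN1A (LOC719199), the p21 inhibitor, was at 47.1 FPKM in NPC and 0.746 FPKM in ESC. CDKN1B, p27, was at 63.8 FPKM in NPC and 13.4 FPKM in ESC, and CDKN2C, p18, at 16.8 FPKM in NPC and 0.0356 FPKM in ESC. CDKN2A (LOC709988) was at 5.097 FPKM in NPC and listed at 0 in ESC. Over the list of inhibitors, 7 of 17 were at least 2-fold higher and 2 lower. Along the series, CDKN1A was at 0.746 FPKM at the ESC stage, 4.62 at R-NSCP1, 18.6 at R-NSCP6 and 47.1 at NPC, and CCNB1 at 174 FPKM at the ESC stage, 97.7 at R-NSCP1, 77.5 at R-NSCP6 and 34.2 at NPC. Both R-NSC stages thus lay between ESC and NPC for these genes.

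Regulators of DNA methylation and chromatin were divided, with 11 of 31 at least 2-fold lower in NPC and 8 higher. The median of -0.63 became 0.33 with library-sum scaling, or -0.43 relative to all symbols. DNMT3B, the de novo methyltransferase of the early embryo, was at 2.52 FPKM in NPC and 515 FPKM in ESC, and DNMT3A at 9.95 FPKM in NPC and 54.7 FPKM in ESC. HELLS, a chromatin remodeller needed for DNA methylation, was at 11.2 FPKM in NPC and 117 FPKM in ESC. The maintenance enzyme DNMT1 was within 2-fold, at 21.3 FPKM in NPC and 40.5 FPKM in ESC. TET1, which oxidizes methylcytosine, was at 1.03 FPKM in NPC and 12.3 FPKM in ESC, and TET2 at 5.12 FPKM in NPC and 1.23 FPKM in ESC. JARID2 and MTF2, accessory subunits of Polycomb complex 2, were at 7.12 and 8.16 FPKM in NPC and 66.99 and 39.3 FPKM in ESC. The catalytic subunit EZH2 was within 2-fold, at 29.5 FPKM in NPC and 46.4 FPKM in ESC, and its relative EZH1 was higher in NPC, at 6.14 FPKM in NPC and 2.52 FPKM in ESC. In Polycomb complex 1, CBX2 (LOC717462) was at 12.1 FPKM in NPC and 38.6 FPKM in ESC and CBX8 (LOC717514) at 5.47 FPKM in NPC and 1.75 FPKM in ESC. SMARCA2 (LOC696973), a BAF complex ATPase, was at 20.8 FPKM in NPC and 2.49 FPKM in ESC, whereas its alternative SMARCA4 was level, at 32.3 FPKM in NPC and 32.9 FPKM in ESC. HMGA1 (LOC718536), an architectural protein of dividing embryonic cells, was at 96.5 FPKM in NPC and 727 FPKM in ESC. These CBX paralogs of Polycomb complex 1 thus differed in direction.

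**Figure D3:**
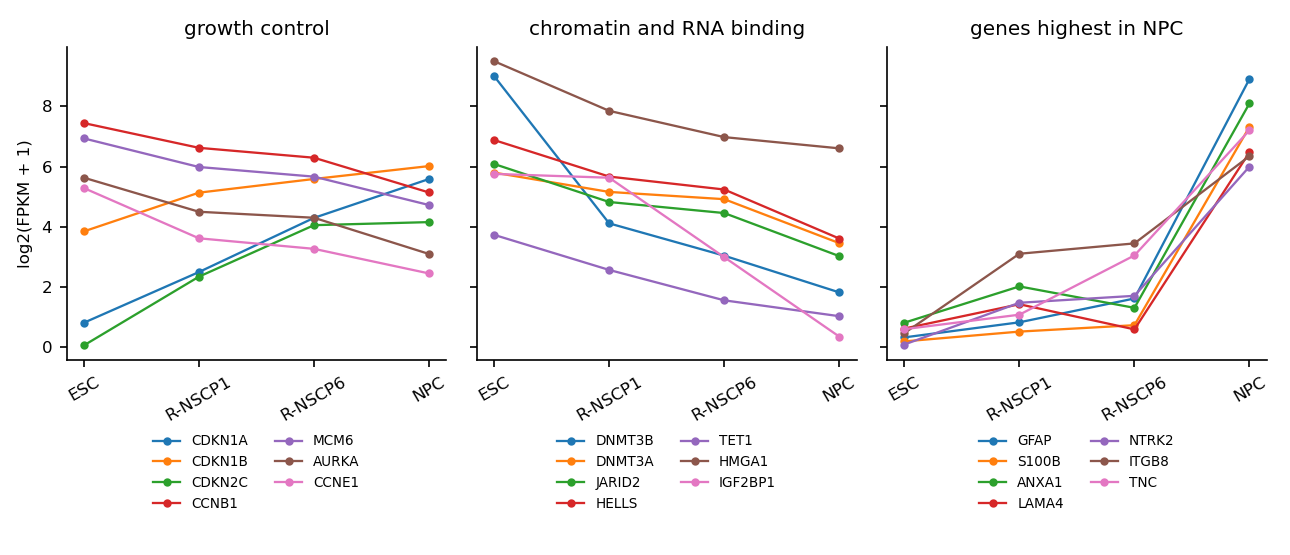
Levels of 21 genes as log2(FPKM + 1) along the 4 stages, 1 library each, in 3 panels: growth control, chromatin and RNA binding, and genes highest in NPC. CDKN1A was at 0.746 FPKM at the ESC stage, 4.62 at R-NSCP1, 18.6 at R-NSCP6 and 47.1 at NPC, while GFAP was at 2.06 FPKM in R-NSCP6 and 483 FPKM in NPC.

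Imprinted genes and genes of the IGF axis were mixed, with 9 of 19 at least 2-fold higher in NPC and 5 lower. MEST was at 459 FPKM in NPC and 68.8 FPKM in ESC, and PEG3 at 50.8 FPKM in NPC and 4.32 FPKM in ESC. The IGF-binding proteins IGFBP5 and IGFBP3 were at 50.4 and 74.96 FPKM in NPC and 1.79 and 4.93 FPKM in ESC. The RNA-binding proteins that stabilize IGF2 and other fetal mRNAs were lower or level: IGF2BP1 (LOC698462) was at 0.269 FPKM in NPC and 53.1 FPKM in ESC, IGF2BP3 at 25.8 FPKM in NPC and 120.2 FPKM in ESC, and IGF2BP2 at 42.2 FPKM in NPC and 65.1 FPKM in ESC. Along the series, IGF2BP1 was at 53.1 FPKM at the ESC stage, 48.5 at R-NSCP1, 6.93 at R-NSCP6 and 0.269 at NPC. With LIN28A, LIN28B, TRIM71 and HMGA2, at 6.28 FPKM in NPC and 34.3 FPKM in ESC, it belongs to the genes known as let-7 targets or regulators.

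Energy metabolism leaned towards ESC on the deposited scale. In the glycolysis list, 11 of 25 were at least 2-fold lower in NPC and 3 higher, with a median of -0.99, which was 0.00 with library-sum scaling, or -0.75 relative to all symbols. HK2, a hexokinase of growing cells, was at 1.73 FPKM in NPC and 25.5 FPKM in ESC, while HK1 was level, at 43.6 FPKM in NPC and 43.3 FPKM in ESC. PDK1, which keeps pyruvate out of mitochondria, was at 3.05 FPKM in NPC and 31.96 FPKM in ESC. SLC16A1, a lactate transporter, was at 22.2 FPKM in NPC and 129.6 FPKM in ESC. PFKFB3, which raises glycolytic flux, was higher in NPC, at 45.5 FPKM in NPC and 7.43 FPKM in ESC, as were ENO2, the neuronal enolase, at 18.3 FPKM in NPC and 5.01 FPKM in ESC, and PFKL (LOC722173), at 90.3 FPKM in NPC and 32.99 FPKM in ESC. Of the 25, 7 symbols have more than 1 row, and with the lowest row of each the median was 0.01. Without these 7 symbols it was -0.22, or -0.16 relative to all symbols. A further limit is that 2 members were at least 20 FPKM in ESC and under 3 FPKM in each other stage, a group described below. Without that group the median was -0.75. Among 44 genes of the respiratory chain, 17 were at least 2-fold lower and none higher, with a median of -0.91, which was 0.07 with library-sum scaling and -0.69 relative to all symbols. The lowest ratios belonged to 5 members listed at 0 in every stage but ESC, a group described below whose limit they share. The next lowest ratio was that of COX7A2 (LOC717879), at 402 FPKM in NPC and 8014 FPKM in ESC. CYCS (LOC100425223), cytochrome c, was at 119 FPKM in NPC and 404 FPKM in ESC. The remaining 27 members were within 2-fold, such as NDUFS1 at 31.6 FPKM in NPC and 36.4 FPKM in ESC. Cholesterol synthesis leaned the other way, with 8 of 24 at least 2-fold higher and none lower. SREBF1, a regulator of lipid synthesis, was at 27.8 FPKM in NPC and 4.49 FPKM in ESC, and HMGCS1, an early enzyme of the pathway, at 231 FPKM in NPC and 85.6 FPKM in ESC.

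Genes of protein synthesis and turnover were lower on the deposited scale by amounts close to the shift of 0.83 under library-sum scaling. With upper-quartile and median-of-ratios scaling, described below, the shift was 0.15 and 0.07. The medians of the ribosomal, proteasome, initiation factor and heat shock genes stayed below 0 under both. Of 64 cytosolic ribosomal protein genes, 21 passed the 2-fold limit towards ESC and none towards NPC, with a median of -0.88, which became 0.12 with library-sum scaling, or -0.64 relative to all symbols. For 69 mitochondrial ribosomal protein genes, 44 were lower and none higher, and the median of -1.14 stayed negative with library-sum scaling, at -0.18, or -0.94 relative to all symbols. For 45 proteasome genes, 22 were lower and 1 was higher, with a median of -0.92 that became 0.07 with library-sum scaling, or -0.69 relative to all symbols. The higher one was PSMB9 (LOC716980), an interferon-induced subunit of the immunoproteasome, at 3.68 FPKM in NPC and 0.459 FPKM in ESC. PSME4, a proteasome activator, was at 10.2 FPKM in NPC and 65.7 FPKM in ESC. Translation initiation factors had 18 of 52 lower and none higher, with a median of -0.84 that became 0.14 with library-sum scaling, or -0.62 relative to all symbols. EIF4A1, the helicase of initiation, was at 57.5 FPKM in NPC and 325 FPKM in ESC. The heat shock and chaperonin family had 24 of 55 lower and 3 higher, with a median of -0.64 that became 0.29 with library-sum scaling, or -0.47 relative to all symbols. HSP90AB1, an abundant cytosolic chaperone, was at 256 FPKM in NPC and 1506 FPKM in ESC, and CCT4, a subunit of the TRiC chaperonin, at 42.6 FPKM in NPC and 231 FPKM in ESC. DNAJC1 was at 52.8 FPKM in NPC and 6.87 FPKM in ESC. The families of this paragraph other than the cytosolic ribosome were picked by symbol after the data had been seen. Beyond them, 36 of 295 genes named ZNF were higher and 45 lower, and the solute carriers had 41 of 169 on each side, with a median of -0.05 that became 0.84 with library-sum scaling, or 0.09 relative to all symbols.

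**Figure D4:**
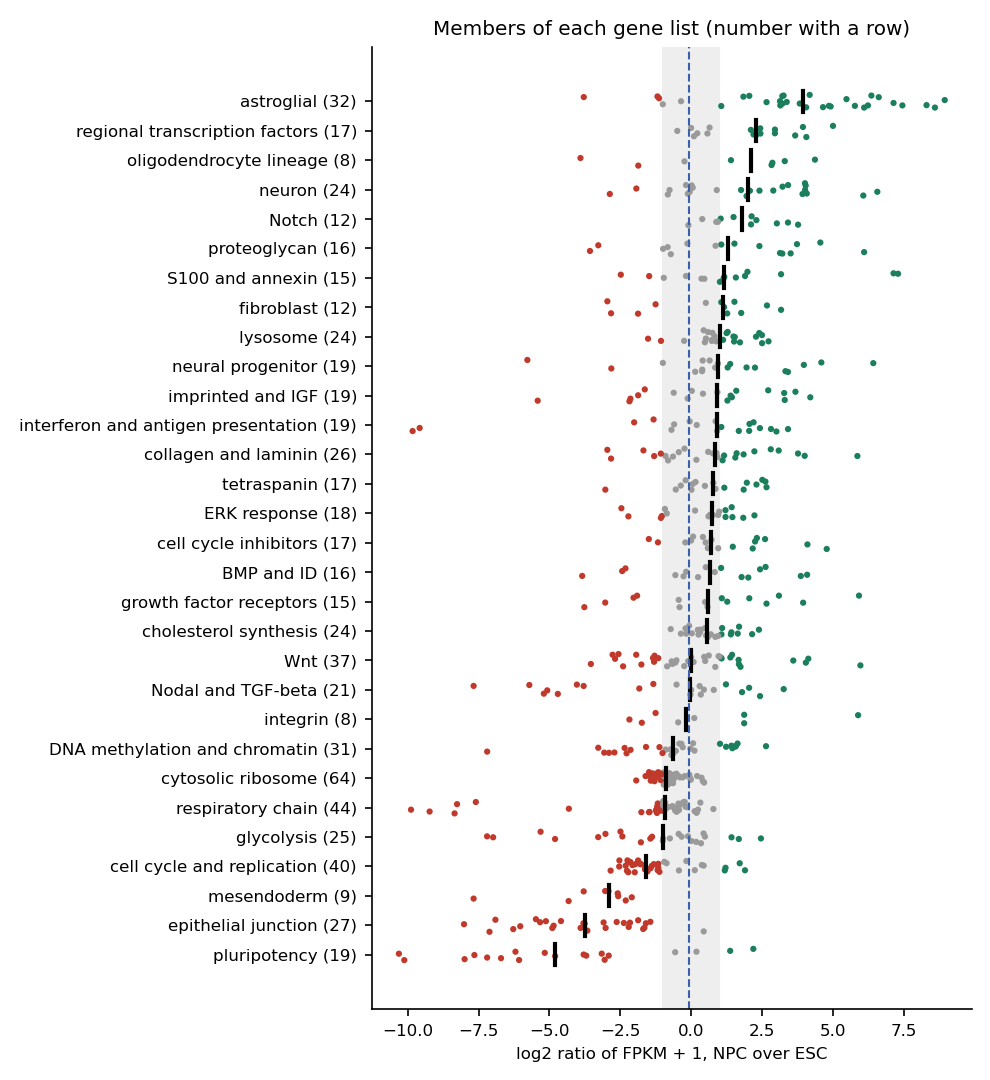
Log2 ratio of FPKM + 1, NPC over ESC, of every member with a row, for the gene lists with at least 8 such members; green points are at least 2-fold higher in NPC, red points at least 2-fold lower, black bars are list medians, the grey band is within 2-fold and the dashed line is the median of all symbols at -0.07. The astroglial median lies at 3.95 and the pluripotency median at -4.80, and with library-sum scaling the medians of the chromatin, cytosolic ribosome, respiratory chain, glycolysis, integrin and Nodal lists turn to 0 or above.

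Across the whole table, of the 15 largest ratios among genes of at least 20 FPKM in the higher stage, 6 belonged to the astroglial list and 5 to symbols without a name. LOC100423776 was at 968 FPKM in NPC and listed at 0 in the other 3 stages, as was LOC100427622, at 126 FPKM. A2M, the protease inhibitor alpha-2-macroglobulin, was at 286 FPKM in NPC and 0.2599 FPKM in ESC, and SPARCL1, a matricellular protein of astrocytes, at 186 FPKM in NPC and 0.0679 FPKM in ESC. GPM6A, a neural membrane glycoprotein, was at 185 FPKM in NPC and 0.93997 FPKM in ESC. At the other end, the unnamed LOC100423414 was listed at 0 in NPC and was at 1897 FPKM in ESC. CXCL12, a chemokine, was listed at 0 in NPC and was at 733 FPKM in ESC. Of the 5 most abundant symbols of each stage, 2 were the same. LOC100426412 led in both, with 47468 FPKM in NPC and 206209 FPKM in ESC. EEF1A1, a translation elongation factor, was at 5892 FPKM in NPC and 6687 FPKM in ESC. TMSB10 (LOC694305), an actin-binding peptide, was at 4359 FPKM in NPC and 27064 FPKM in ESC.

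A group of genes was listed at 0 outside ESC. There were 40 symbols with a value above 0 in ESC and 0 in R-NSCP1, R-NSCP6 and NPC, and 24 of them reached 20 FPKM in ESC. Counted in the same way, 17 symbols were above 0 in NPC alone, and 6 of them reached 20 FPKM. R-NSCP1 had 18 and R-NSCP6 had 16 such symbols. The 10 highest in ESC were COX5A, IFITM1, IFITM3, UQCRH, ATP5G1, ATP5O, ATP6V0E1, UQCRQ, SARS and NUTF2, from 943 down to 92.2 FPKM. Most of these are used by every cell: COX5A, UQCRH, UQCRQ, ATP5G1 and ATP5O encode parts of the respiratory chain and ATP synthase, ATP6V0E1 a part of the proton pump of lysosomes, SARS the seryl-tRNA synthetase and NUTF2 a nuclear import factor. For such genes no more is said here than that they are listed at 0. The pluripotency genes GDF3 and DPPA2 (LOC708056), at 12.9 and 6.503 FPKM in ESC, were also among the 40, as was FGFR2, at 12.6 FPKM in ESC.

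A wider set showed the same mixture. At least 20 FPKM in ESC and under 3 FPKM in each of the other stages was found for 89 symbols. The count with NPC as the high stage was 39, and it was 5 with R-NSCP1 and 19 with R-NSCP6. The 89 include POU5F1, NANOG, L1TD1, DPPA4 (LOC706631), CRIPTO (LOC712918) and ZSCAN10, genes known from pluripotent cells. They also include TPT1, an abundant growth-related protein, at 2.34 FPKM in NPC and 1777 FPKM in ESC, SET, a histone chaperone, at 0.506 FPKM in NPC and 725 FPKM in ESC, PABPC1, the poly(A)-binding protein, at 0.703 FPKM in NPC and 323 FPKM in ESC, and VCL, vinculin, at 0.0758 FPKM in NPC and 62.6 FPKM in ESC. For 3 of these genes another symbol carries the same name in the gene table and held values in all stages. FTH1, the ferritin heavy chain, was at 0.0254 FPKM in NPC and 29.8 FPKM in ESC, while LOC574118 of the same name was at 279.9 FPKM in NPC and 342 FPKM in ESC. UQCRH was listed at 0 in NPC and was at 598 FPKM in ESC, while LOC707968 of the same name was at 82.6 FPKM in NPC and 84.9 FPKM in ESC. ITM2B was at 0.0854 FPKM in NPC and 45.3 FPKM in ESC, while LOC709896 of that name was at 182 FPKM in NPC and 98.2 FPKM in ESC. A log2 ratio of one such symbol is therefore not the ratio of the gene. The reverse pattern was counted by another rule, under 1 FPKM in 1 stage and at least 20 FPKM in each other stage. Its counts are thus not set against the 89. With R-NSCP1, R-NSCP6 and NPC as the low stage, 1, 1 and 3 symbols met it. With ESC as the low stage, 13 symbols did. They include the neural genes APLP1, at 74.9 FPKM in NPC and 0.8097 FPKM in ESC, CNTFR, the ciliary neurotrophic factor receptor, at 27.3 FPKM in NPC and 0.364 FPKM in ESC, and GPR56, an adhesion receptor of neural progenitors, at 121 FPKM in NPC and 0.598 FPKM in ESC.

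The symbols with more than 1 row set a limit on the ESC values. All 128 such symbols, with 281 rows, had different values between their rows in ESC, and none had different values in NPC, R-NSCP1 or R-NSCP6. PGAM1, a glycolytic enzyme, was at 7.77 FPKM in NPC in each of its rows and had ESC rows of 347, 200.04, 11.2 and 0 FPKM. With the row of highest mean, 13 of the 128 were at least 2-fold higher in NPC and 60 were lower, with a median log2 ratio of -0.90. With the row of lowest mean, 84 were higher and 15 lower, with a median of 2.17. With the rows of a symbol added up, 10 were higher and 66 lower. For many of these symbols the direction thus depends on the row that is taken, as for GAPDH, a glycolytic enzyme, whose log2 ratio was -0.99 with the highest row and 9.87 with the lowest. NDUFS5, listed at 0 in NPC and at 1148 FPKM in ESC, kept its direction with either row, as did UQCRH. What made the ESC rows differ was not tested. Without all repeated symbols, 2595 symbols were at least 2-fold higher in NPC and 2711 were lower.

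**Figure D5:**
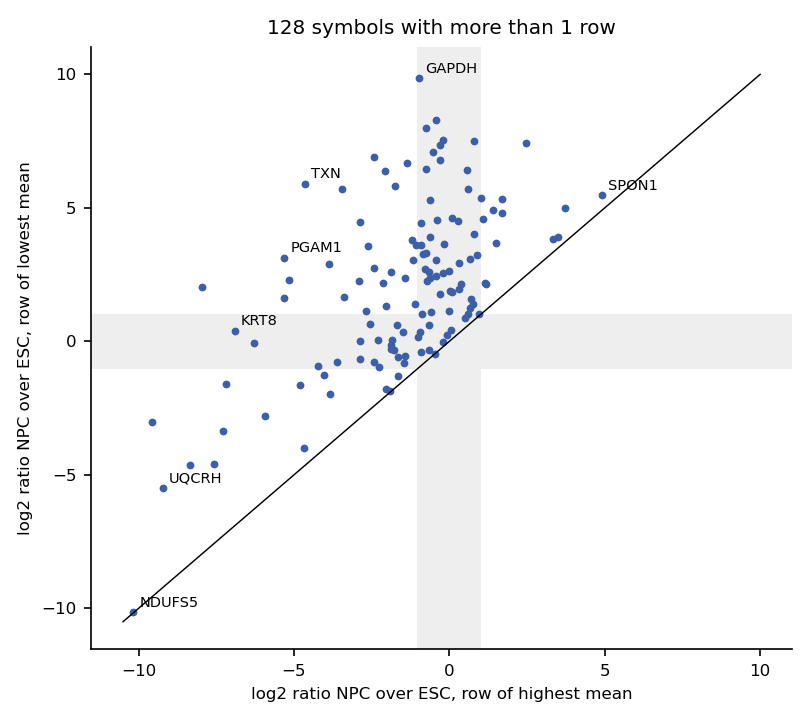
Log2 ratio of FPKM + 1, NPC over ESC, of the 128 symbols with more than 1 row, by the row of highest mean (horizontal axis) and the row of lowest mean (vertical axis); the line marks equal ratios and the grey bands are within 2-fold. Points far above the line, such as GAPDH at -0.99 and 9.87, change with the row taken.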

How the data were processed

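RNA of 1 pooled sample per stage was sequenced as paired ends. The authors aligned them with TopHat against an early rhesus assembly (MMUL_1.0) and derived FPKM per UCSC gene from Cufflinks. The submitters' processing notes name TopHat2 2.0.5, Bowtie 0.12.8.0 and Cufflinks 2.0.2. The deposited FPKM values were used as they stand, without counts, and 12458 of 12460 symbols reach 3 FPKM in at least 1 of the 4 stages. How repeated symbols arose in the ESC column is not stated by the sources.

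Where a symbol was repeated (128 symbols), the row with the greatest mean over the stages was retained. Ratios are log2 of (NPC FPKM + 1) over (ESC FPKM + 1), so they understate the difference of low genes. Of 5050 LOC symbols, 3389 were named from a RefSeq gene table of a later rhesus assembly, or from a name given in the symbol itself. The 36 gene lists hold 910 genes, of which 664 symbols have a row. No test, standard error or p-value was computed, since 1 library a stage gives no spread. The miRNA libraries were not used.

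Genes named in the text are the 15 largest and 15 smallest ratios among symbols of at least 20 FPKM in the higher stage, up to 6 members of each list at either end and the 3 nearest to 0 of at least 3 FPKM in both stages, the 10 highest ESC symbols listed at 0 elsewhere, and the 5 most abundant of each stage. The comparison, lists and alternatives were chosen with earlier results of these data known. The families picked by symbol, their members, and some list members and examples outside the rule were chosen after their values were seen. The calling rule was tested on simulated data. Python 3.11.15, numpy 2.4.6, pandas 2.3.3 and matplotlib 3.10.9 were used. Sequences of these genes were not used here. Some members of the lists are counted but not reported here by name.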

Additional observations from a re-analysis of the deposited data

How the results depend on the processing

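No paired analysis was possible because each stage has 1 library. The scale of the libraries had the largest effect. With FPKM divided by the library sum, 5206 symbols were at least 2-fold higher in NPC and 1088 lower (82.7% and 17.3% of those that differed), against 2608 and 2771 (48.5% and 51.5%) with FPKM as deposited. With the sum taken without the 100 most abundant rows, a scaling added after the data had been seen, 3693 were higher and 1777 lower, and 67.5% of those that differed were higher. The median over all symbols moved by 0.83 and 0.39 under these scalings. Upper-quartile scaling gave 3026 and 2279 symbols with a shift of 0.15, and median-of-ratios scaling gave 2793 and 2542. With at least 3 FPKM required in both stages, 1127 were higher (37.9% of those that differed) and 1849 lower. Under the other settings tried (pseudocounts of 0.1 and 3, other rows for repeated symbols, and leaving out zeros, repeated symbols or genes high only in ESC, the last also added after the data had been seen, or at least 3 FPKM in 1 stage), both counts stayed within 1.5 times those with FPKM as deposited. Symbols below 0.1 FPKM in every stage but ESC numbered 67, against 40 listed at 0, and 37 without repeated symbols. Library-sum scaling changed the sign of 6 list medians (Nodal and TGF-beta, integrin, glycolysis, respiratory chain, chromatin and cytosolic ribosome). The Nodal median also changed sign under the other 3 scalings, and the integrin median under all of them but median-of-ratios scaling. With at least 3 FPKM in both stages, the fibroblast median became -1.25, the interferon median -0.05 and the Nodal median 0.30. The Nodal median was also 0.30 without genes high only in ESC. It also turned to just above 0 without zeros, where the choroid plexus median was 0.29. Trophoblast and amnion genes had a median of -1.14 with at least 3 FPKM in 1 stage, and glycolysis genes 0.01 with the row of lowest mean. Of 269 named genes, 15 changed sign with library-sum scaling, 10 with the sum taken without the 100 most abundant rows, 8 with upper-quartile scaling and 4 with median-of-ratios scaling, and none of these differed by at least 2-fold as deposited. With the row of lowest mean, 3 changed sign: KRT8 to 0.40, PGAM1 to 3.13 and GAPDH to 9.87. The paper gives the total reads of each library, but with no counts the number of reads behind each value is unknown.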

Other observations

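The beta-tubulin genes, which the report does not describe and which were chosen after their values were seen, differed in direction within the family. The median of the 5 symbols was -0.63, which became 0.14 with library-sum scaling, or -0.61 relative to all symbols. TUBB2B, a tubulin of neural cells, was at 332 FPKM in NPC and 16.8 FPKM in ESC, while TUBB4B, a widely used form, was at 127 FPKM in NPC and 279 FPKM in ESC. In the potassium channel family, KCNMA1, a calcium-activated channel, was at 20.5 FPKM in NPC and 0.614 FPKM in ESC, and KCNS3, a modulatory subunit, at 0.1903 FPKM in NPC and 7.64 FPKM in ESC. With 1 library a stage none of these differences has a replicate check.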
